A study of Mus musculus with 10 samples.

Results

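Cytotoxic CD8 T cells kill by releasing preformed granules, and 10 genes of that release machinery were described across the libraries of a mouse RNA-seq series. They are the pore former Prf1, the granzyme inhibitors Serpinb9 and Serpinb6b, the granule proteoglycan core Srgn, the granule membrane genes Nkg7 and Lamp1, and the docking and fusion genes Rab27a, Unc13d, Stx11 and Stxbp2. The genes were chosen by name, without a threshold on any measured value, but with earlier results of these data known. All 10 of them were among the 53465 genes in each count table and among the 13182 genes that passed the filter on low counts. Their raw counts lay between 1695 and 39665 per library.

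The cells were CD8 T cells of OT-I mice on the C57BL/6 background, taken from spleens and peripheral lymph nodes, whose transgenic T cell receptor recognises one ovalbumin peptide. All libraries share an activation of 3 days with that peptide and IL-2 in 25 mM glucose, a later culture in 1 mM glucose and a final restimulation of 4 h with PMA and ionomycin, which bypasses the T cell receptor. The groups were d9 with acetate (5 mM sodium acetate for the last day of 5 days, 120 h, in 1 mM glucose, n = 3), d9 without acetate (n = 3), d5 with acetate (5 mM for the 1 day, 24 h, in 1 mM glucose, n = 2) and d5 without acetate (n = 2). Cells kept in 25 mM glucose were not analysed here. The d9 and d5 groups differ in time in culture as well as in time in 1 mM glucose. These cannot be told apart in any difference between days, and every d9 library also held more counts than every d5 library. The durations in the labels do not sum to the days in the names d5 and d9, and those names are kept as labels. The labels do not state whether libraries of a group came from separate mice or cultures, so p-values measure the spread between these libraries, which may be technical.

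Perforin inserts into the membrane of the target cell and lets granzymes enter. Granzymes wait in the granule bound to the serglycin proteoglycan, and intracellular serpins inactivate granzyme that leaks into the cytosol of the killer cell itself. Rab27a docks granules at the immunological synapse, Munc13-4 (Unc13d) primes them, and syntaxin 11 with its partner Munc18-2 (Stxbp2) takes part in membrane fusion. In humans, inherited loss of perforin, Munc13-4, syntaxin 11 or Munc18-2 causes familial haemophagocytic lymphohistiocytosis, and loss of RAB27A causes Griscelli syndrome.

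The regions just before the start of 6 genes are shown because these are the genes that passed the test in at least 1 comparison described below. Prf1, Nkg7, Lamp1 and Serpinb9 were higher at d9, and Serpinb9, Serpinb6b and Rab27a were higher with acetate. Each is the 250 bases before the RefSeq start on GRCm38.p6, written in the direction of transcription. Capitals mark matches, on either strand, to AP-1 (TGANTCA), RUNX (TGTGGT), T-box (AGGTGT), ETS (GGAAGT) or STAT (TTCNNNGAA) letters.
Prf1, chr10:61297586-61297835, plus strand: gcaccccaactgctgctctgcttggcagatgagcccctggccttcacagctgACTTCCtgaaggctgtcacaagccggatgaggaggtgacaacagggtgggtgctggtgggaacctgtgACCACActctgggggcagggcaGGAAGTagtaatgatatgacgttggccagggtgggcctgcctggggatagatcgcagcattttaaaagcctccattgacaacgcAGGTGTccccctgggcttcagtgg
Nkg7, chr7:43436888-43437137, plus strand: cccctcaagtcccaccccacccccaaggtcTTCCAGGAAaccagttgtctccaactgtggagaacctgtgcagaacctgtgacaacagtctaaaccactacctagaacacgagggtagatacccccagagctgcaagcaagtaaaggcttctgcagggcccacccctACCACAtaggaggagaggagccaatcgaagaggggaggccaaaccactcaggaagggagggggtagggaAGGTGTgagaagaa
Lamp1, chr8:13158911-13159160, plus strand: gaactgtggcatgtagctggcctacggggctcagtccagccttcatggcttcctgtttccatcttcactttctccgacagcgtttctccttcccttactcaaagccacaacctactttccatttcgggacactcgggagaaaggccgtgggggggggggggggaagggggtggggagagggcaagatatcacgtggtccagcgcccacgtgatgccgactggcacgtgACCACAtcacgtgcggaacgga
Serpinb9, chr13:33004291-33004540, plus strand: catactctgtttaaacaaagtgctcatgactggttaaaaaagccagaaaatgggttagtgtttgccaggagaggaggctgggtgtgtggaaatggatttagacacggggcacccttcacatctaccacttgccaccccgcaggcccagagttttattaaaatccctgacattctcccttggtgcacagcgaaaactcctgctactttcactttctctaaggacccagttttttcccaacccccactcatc
Serpinb6b, chr13:32965011-32965260, plus strand: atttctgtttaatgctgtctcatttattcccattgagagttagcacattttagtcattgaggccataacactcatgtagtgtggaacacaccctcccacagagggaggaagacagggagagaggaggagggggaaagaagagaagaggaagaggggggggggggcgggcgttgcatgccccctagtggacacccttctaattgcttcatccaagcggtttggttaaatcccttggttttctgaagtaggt
Rab27a, chr9:73044560-73044809, plus strand: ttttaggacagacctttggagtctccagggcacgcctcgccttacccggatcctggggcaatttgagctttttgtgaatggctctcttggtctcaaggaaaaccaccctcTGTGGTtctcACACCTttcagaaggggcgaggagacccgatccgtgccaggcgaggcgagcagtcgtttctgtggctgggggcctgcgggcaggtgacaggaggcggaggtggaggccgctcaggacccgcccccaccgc

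In the Prf1 window a RUNX match lay at -130 to -125, a T-box match at -24 to -19 and ETS matches at -198 to -193 and at -108 to -103, counted back from the start. The T-box match of Prf1 shares bases with an E-box match (CANNTG) at -25 to -20. Nkg7 had a STAT match at -220 to -212, a RUNX match at -83 to -78 and a T-box match at -14 to -9. Lamp1 had a RUNX match at -22 to -17. The Rab27a window shown had a RUNX match at -140 to -135 and a T-box match at -130 to -125. RefSeq gives Rab27a a later start as well, whose window (chr9:73063898-73064147, not shown) had an ETS match at -53 to -48 and no RUNX or T-box match. The windows of Serpinb9 and Serpinb6b held none of the 5 letter patterns, which says only that these letters are not in these bases. Among 32817 windows of the same length across the genome, 14.0% held the RUNX letters, 11.8% the T-box letters, 19.7% the ETS letters, 7.01% the STAT letters, 6.75% the AP-1 letters and 66.2% an E-box. RefSeq windows were matched for 9 of the 10 genes, 11 windows in all. The Prf1 window was 58.8% G or C with 4 CG pairs, against medians of 52.4% and 6 over all windows. The annotated gene model of Serpinb9 used for counting lengths begins upstream of its RefSeq start, so that window lies inside the gene model. The windows of Nkg7, Serpinb6b and Prf1 also end past the start of their gene models, and the T-box match of Nkg7 lies inside its model.

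Libraries held 16588023 to 24659226 counts on genes, and the 10 genes took 0.286% to 0.578% of them. Ribosomal protein genes took 10.8% to 15.4% of counts. The d9 library without acetate numbered 1 (15.4%) and the d9 library with acetate numbered 2 (15.1%) lay above the other d9 libraries, at 11.2% to 12.7%. CD8 T cell markers summed to 2314 to 3502 counts-per-million (CPM, scaled with TMM factors). Natural killer (NK) cell markers summed to 18.6 to 26.5 CPM at d9 with acetate, 9.09 to 14.2 CPM at d9 without it, 8.63 to 8.86 CPM at d5 with acetate and 3.80 to 4.85 CPM at d5 without it. Klrb1c was the listed NK gene with the highest mean. Ncr1, another gene of that list, had 0 to 5 counts per library, and 1 of the 9 listed NK genes had 0 counts in every library. Myeloid markers summed to 0.128 to 2.41 CPM, with 3 of 10 at 0 in every library. Mast cell and basophil markers summed to 55.9 to 152 CPM at d9 and 10.2 to 18.1 CPM at d5, nearly all of it Kit, while Cpa3 reached at most 2 counts. B cell markers summed to 85.6 to 119 CPM at d9 with acetate, 78.7 to 102 CPM at d9 without it, 200.3 to 209 CPM at d5 with acetate and 142 to 173 CPM at d5 without it, nearly all of it Ighm. At d5 all 3 tested B cell markers stood higher with acetate with no overlap, where 29.8% of all genes did so. Of these markers Cd79b passed the edgeR test at d5 (1.64 ± 0.35, adjusted p 0.0499). Its d5 levels were 2.75 to 3.84 CPM with acetate, against 0.938 to 1.17 CPM without. The acetate difference of Cd79b was -0.40 ± 0.30 at d9 (adjusted p 0.561) and 0.62 ± 0.23 over both days (adjusted p 0.132). CD4 T cell markers summed to 3.14 to 9.53 CPM at d9 and 13.3 to 18.5 CPM at d5. Whether any of these took part in the differences below was not tested. In bulk RNA, fewer cells that express a gene and less RNA of it per cell cannot be told apart.

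**Figure D1:**
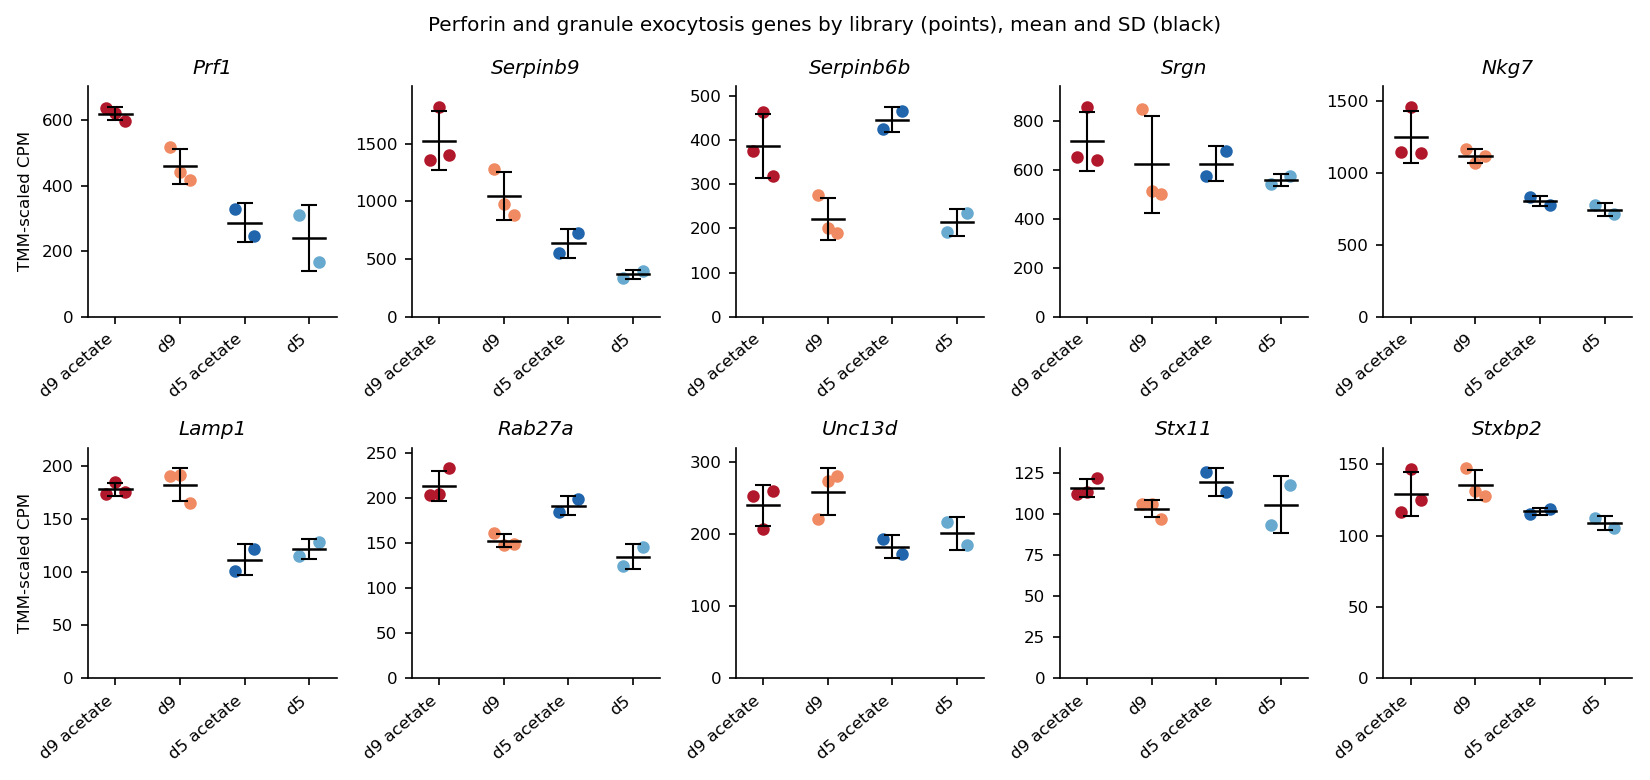
Level of each gene in every library, as TMM-scaled counts-per-million (CPM) on axes that start at 0. Points are libraries (3 per group at d9, 2 per group at d5), and black bars give the mean and SD; Serpinb6b and Rab27a sit higher with acetate on both days, and Prf1, Serpinb9, Nkg7 and Lamp1 sit higher at d9 with and without acetate.

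Perforin was higher at d9 than at d5, and the acetate difference did not pass the test. Prf1 (ENSMUSG00000037202, chr10:61297833-61304680, plus strand) stood at 638, 623 and 598 CPM at d9 with acetate, against 519, 443 and 417 CPM at d9 without acetate. At d5 it stood at 329.8 and 246 CPM with acetate, against 311 and 169 CPM without. The groups did not overlap at d9, and at d5 the higher library without acetate lay between the libraries with acetate. Between days, both d9 groups lay wholly above their d5 groups.

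Prf1 rose at d9 relative to d5 by a log2 fold change of 1.11 ± 0.23 (SE) with acetate, with an adjusted p of 0.00358, and by 0.94 ± 0.23 without acetate, with an adjusted p of 0.00922. Adjusted p-values throughout come from edgeR's quasi-likelihood test, adjusted by the Benjamini-Hochberg method over all genes tested, and 0.05 was the threshold. The acetate difference in Prf1 was 0.43 ± 0.20 at d9 (95% interval -0.01 to 0.87, adjusted p 0.337) and 0.26 ± 0.25 at d5 (interval -0.28 to 0.80, adjusted p 0.580). Averaged over both days it was 0.35 ± 0.16, with an adjusted p of 0.202. The d5 libraries without acetate, at 311 and 169 CPM, lay further apart than those of any other group in ratio. Without the d5 library numbered 2 the day difference without acetate was 0.57 with an adjusted p of 0.0740, and without the one numbered 1 it was 1.45 with an adjusted p of 0.00163. With acetate, the day difference passed the test in each of the 20 alternative fits.

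Both granzyme-inhibiting serpins were higher with acetate, and Serpinb9 was also higher at d9 than at d5. Serpinb9 (ENSMUSG00000045827, chr13:33003250-33017957), the inhibitor of granzyme B, rose with acetate and rose at d9 by factors of 2.40 with acetate and 2.85 without it. Serpinb6b (ENSMUSG00000042842, chr13:32965209-32979067), a granzyme A inhibitor in the mouse, rose with acetate, while its day differences did not pass the test. The genes lie near each other in a cluster of related serpins on chromosome 13, and the sources used here do not say how reads shared by near-identical copies were counted, so small differences between the copies are uncertain.

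Serpinb6b had 376, 463 and 319.8 CPM at d9 with acetate, against 276, 200.3 and 189 CPM at d9 without acetate. At d5 it had 426 and 467 CPM with acetate, against 192 and 236 CPM without. On each day the lowest library with acetate exceeded the highest without it. Averaged over both days, the acetate difference was a log2 fold change of 0.93 ± 0.14, a factor of 1.90, with an adjusted p of 0.00935. At d5 alone the difference was 1.06 ± 0.21, a factor of 2.08, with an adjusted p of 0.0411, and at d9 alone it was 0.80 ± 0.17, a factor of 1.74, with an adjusted p of 0.105. The day difference was -0.21 ± 0.19 with acetate (adjusted p 0.403) and 0.05 ± 0.19 without it (adjusted p 0.861).

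Serpinb9 had 1356, 1817 and 1401 CPM at d9 with acetate, against 1283, 977 and 877 CPM at d9 without acetate. At d5 it had 549 and 722 CPM with acetate, against 337 and 397 CPM without. Here too the groups with and without acetate did not overlap on either day, though the gap at d9 was narrow. The acetate difference over both days was 0.67 ± 0.14, a factor of 1.59, with an adjusted p of 0.0269. The difference on a single day did not pass the test, at 0.79 ± 0.22 at d5 (adjusted p 0.0947) and 0.54 ± 0.18 at d9 (adjusted p 0.209). Relative to d5, Serpinb9 rose at d9 by 1.26 ± 0.21 with acetate (adjusted p 8.66e-04) and by 1.51 ± 0.21 without it (adjusted p 3.51e-04), and these passed in each of the 20 alternative fits.

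The serpin calls for acetate depended on which libraries were in the fit, as did the counts over all genes, given below. The d5 call of Serpinb6b was lost without any single d5 library (adjusted p 0.134 to 0.237), and without d9 library 2 or 3 lacking acetate or d9 library 1 with acetate (adjusted p 0.0606 to 0.0740). With the replicate number as a block its adjusted p at d5 was 0.0626. Both serpins lost the call over both days without either d5 library lacking acetate, or without the d5 acetate library numbered 2, at adjusted p values of 0.0506 to 0.0589 for Serpinb6b and 0.0914 to 0.125 for Serpinb9. Serpinb9 also lost it without the d9 library numbered 2 (0.0708) or 3 (0.0686) that lacked acetate. Across 19 alternative fits the log2 fold change over both days stayed between 0.86 and 1.03 for Serpinb6b and between 0.56 and 0.76 for Serpinb9.

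Of the 15 other clade B serpin genes listed, 4 passed the filter on low counts. Serpinb1a, an inhibitor of neutrophil-type serine proteases, was the 1 that changed with day, at 34.0 ± 5.93 CPM (SD, n = 3) at d9 with acetate and 4.33 ± 0.65 CPM (SD, n = 2) at d5 with acetate. Its log2 fold change at d9 relative to d5 was 2.97 ± 0.35 with acetate (adjusted p 1.28e-04) and 2.68 ± 0.35 without (adjusted p 2.26e-04). None of the 4 passed the edgeR test for acetate over both days, and none had an unadjusted p under 0.05 there.

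Serglycin did not pass the test in any comparison. Srgn (ENSMUSG00000020077, chr10:62493833-62527451, minus strand) had 653, 857 and 643 CPM at d9 with acetate, against 850.1, 515 and 504 CPM at d9 without acetate. Its d5 values were 574 and 676 CPM with acetate, against 543 and 577 CPM without. The highest library of each d9 group was the one with the high ribosomal protein share, and the other libraries at d9 stood at 643 to 653 CPM with acetate and 504 to 515 CPM without it. The acetate difference was 0.20 ± 0.20 at d9 (adjusted p 0.679), 0.16 ± 0.25 at d5 (adjusted p 0.758) and 0.18 ± 0.16 over both days (adjusted p 0.506). With both high-share libraries left out, the difference over both days was 0.26 with an adjusted p of 0.0320, and at d9 alone it was 0.37 with an adjusted p of 0.0884.

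The same pair of libraries also held the highest Serpinb9, Serpinb6b, Nkg7 and Stxbp2 of their groups and the lowest Unc13d. With both left out, the d9 acetate difference was 0.85 for Serpinb6b (adjusted p 0.0230), 0.57 for Rab27a (adjusted p 0.0370) and 0.59 for Serpinb9 (adjusted p 0.0643). With the ribosomal protein share as a covariate instead, it was 0.89 for Serpinb6b (adjusted p 0.00854), 0.64 for Serpinb9 (adjusted p 0.0114) and 0.49 for Rab27a (adjusted p 0.0151). With both left out, Serpinb6b was lower at d9 than at d5 in the presence of acetate, at -0.37 with an adjusted p of 0.0284.

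**Figure D2:**
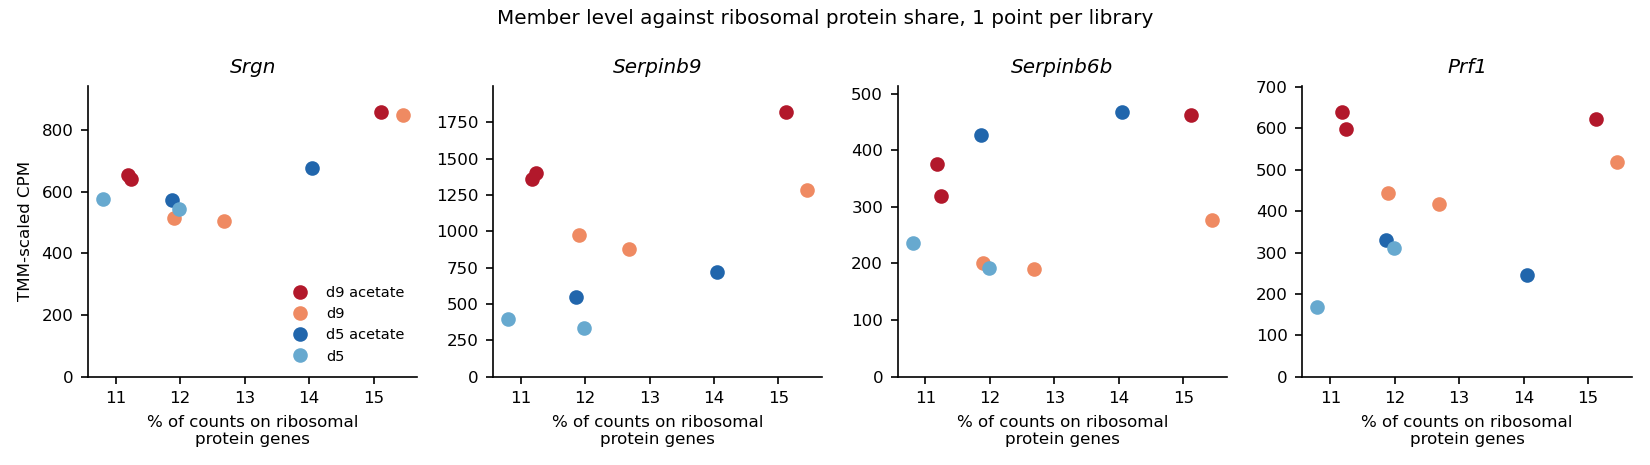
Level of 4 genes in TMM-scaled CPM (vertical axis, from 0) against the percent of a library's counts on ribosomal protein genes (horizontal axis, which does not start at 0), 1 point per library, coloured by group. The d9 libraries at 15.1% (with acetate) and 15.4% (without) hold the highest Srgn levels, 857 and 850.1 CPM. For Prf1 the 3 libraries at d9 with acetate differ little across the same range of shares. At d9 without acetate the library at 15.4% holds the highest Prf1, 519 CPM, against 443 and 417 CPM.

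The granule membrane genes rose with day and showed no acetate difference past the threshold. Nkg7 (ENSMUSG00000004612, chr7:43437073-43438249, plus strand), a granule membrane protein needed for degranulation, had 1149, 1461 and 1142 CPM at d9 with acetate, against 1169, 1071 and 1119 CPM at d9 without acetate. At d5 it had 832 and 781 CPM with acetate, against 778 and 714 CPM without. Every d9 library lay above every d5 library, while at d9 the groups with and without acetate overlapped. Nkg7 rose at d9 relative to d5 by 0.63 ± 0.14 with acetate (adjusted p 0.00410) and by 0.59 ± 0.14 without it (adjusted p 0.00686). Its acetate difference over both days was 0.14 ± 0.09, with an interval of -0.07 to 0.34 and an adjusted p of 0.397.

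Lamp1 (ENSMUSG00000031447, chr8:13159161-13175338, plus strand), whose protein CD107a appears on the cell surface during degranulation, had 174, 185 and 176 CPM at d9 with acetate, against 191, 192 and 165 CPM at d9 without acetate. The d5 libraries had 101 and 122 CPM with acetate, against 115 and 128 CPM without. The acetate groups overlapped on both days and the d9 libraries all exceeded the d5 libraries. Lamp1 rose at d9 by 0.67 ± 0.12 with acetate (adjusted p 0.00170) and by 0.58 ± 0.12 without it (adjusted p 0.00400). The acetate difference over both days was -0.08 ± 0.09, with an interval of -0.27 to 0.11. Of the day calls without acetate, that of Lamp1 was lost without the d5 library numbered 1 (0.51, adjusted p 0.0548) and that of Nkg7 without the one numbered 2 (0.53, adjusted p 0.0696). Exons of Lamp1 overlap those of Grtp1 on the opposite strand over 249 bases, and Grtp1 had at most 13 counts in a library.

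Among the docking and fusion genes, Rab27a rose with acetate and the other 3 did not pass the test in any comparison. Rab27a (ENSMUSG00000032202, chr9:73044854-73097629, plus strand), the small GTPase of granule docking, had 203, 205 and 233 CPM at d9 with acetate, against 161, 147 and 149 CPM at d9 without acetate. In the d5 libraries it had 184 and 199 CPM with acetate, against 125 and 145 CPM without. All 5 libraries with acetate lay above all 5 without it, across days. The share of all genes that did so across days was not computed. Within days, groups stood apart in that direction for 29.8% of all genes at d5 and 9.9% at d9. Averaged over days, the acetate difference was 0.49 ± 0.08, a factor of 1.41, with an adjusted p of 0.0130. On single days it was 0.48 ± 0.10 at d9 (adjusted p 0.102) and 0.51 ± 0.13 at d5 (adjusted p 0.0734). The call over both days was lost without either d5 library lacking acetate or without the d5 acetate library numbered 2 (adjusted p 0.0590 to 0.0777), with log2 fold changes of 0.44 to 0.55. The day difference was 0.16 ± 0.12 with acetate (adjusted p 0.296) and 0.18 ± 0.12 without it (adjusted p 0.250). Exons of Rab27a share 149 bases with the processed pseudogene Gm27186, which had at most 1 count in a library.

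Unc13d (ENSMUSG00000057948, chr11:116062095-116077961, minus strand), which primes docked granules, had 253, 207 and 260.0 CPM at d9 with acetate, against 222, 274 and 281 CPM at d9 without acetate. The d5 values were 194 and 172 CPM with acetate, against 218 and 185 CPM without. Its d9 libraries exceeded the d5 libraries of the same acetate state, by 0.39 ± 0.15 with acetate (adjusted p 0.0546) and 0.36 ± 0.15 without it (adjusted p 0.0783). These values sat near the threshold, and passed it in 7 of 20 alternative fits with acetate and in 6 of 20 without. With both high-share d9 libraries left out, the day difference was 0.49 with acetate (adjusted p 0.00206) and 0.44 without it (adjusted p 0.00444). With the ribosomal protein share as a covariate it was 0.35 with acetate (adjusted p 0.00771) and 0.50 without it (adjusted p 0.00239). The acetate difference of Unc13d over both days was -0.12 ± 0.10 (adjusted p 0.491).

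Stx11 (ENSMUSG00000039232, chr10:12938209-12964298, minus strand), the SNARE of granule fusion, ranged over 112 to 122 CPM at d9 with acetate, against 97.2 to 106 CPM at d9 without acetate. At d5 it ranged over 114 to 125 CPM with acetate, against 93.5 to 118 CPM without. The groups did not overlap at d9 and overlapped at d5. The acetate difference over both days was 0.17 ± 0.09, with an adjusted p of 0.245. Stxbp2 (ENSMUSG00000004626, chr8:3630955-3643644, plus strand), its Munc18 partner, ranged over 116 to 146 CPM at d9 with acetate, against 127 to 147 CPM at d9 without, and over 115 to 119 CPM at d5 with acetate, against 105 to 112 CPM at d5 without. Its acetate difference over both days was 0.02 ± 0.09, with an interval of -0.17 to 0.21, and its day difference was 0.14 ± 0.12 with acetate (adjusted p 0.371) and 0.31 ± 0.12 without it (adjusted p 0.0698).

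**Figure D3:**
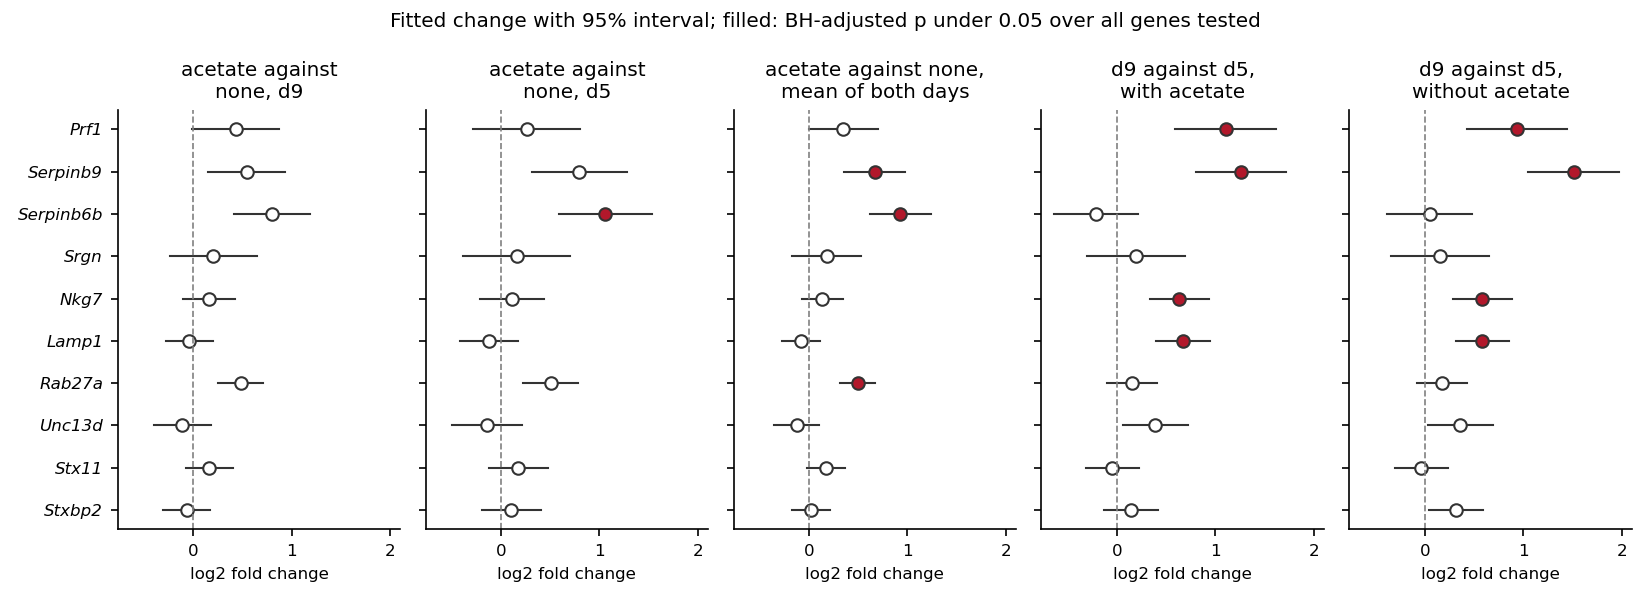
Fitted log2 fold change of each gene (points) with its 95% interval (lines) in 5 comparisons, where filled points have an adjusted p under 0.05 over all genes tested. Serpinb6b, Serpinb9 and Rab27a are filled for acetate averaged over both days, and Prf1, Serpinb9, Nkg7 and Lamp1 are filled in both comparisons of d9 with d5.

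Counted together, 3 of the 10 genes (Serpinb6b, Serpinb9 and Rab27a) rose with acetate over both days and 0 fell, where 3.35% of all genes tested rose, 2.54% fell and 5.89% changed in either direction. At d5, 1 of 10 rose with acetate (Serpinb6b) and 0 fell, where 0.66% of all genes rose, 0.865% fell and 1.52% changed. At d9, 0 of 10 passed the edgeR test, against 0.0303% of all genes, while 3 of the 10 had an unadjusted p under 0.05, as did 15.4% of all genes, and the DESeq2 Wald test called 2 of the 10 and 2.54% of all genes. Groups with and without acetate did not overlap for 5 of 10 at d5, all higher with acetate, where 29.8% of all genes did so in that direction and 59% in either. At d9 this held for 5 of 10, all higher with acetate, where 9.9% of all genes did so in that direction and 18.7% in either. The median log2 fold change of the 10 was 0.18 over both days, 0.17 at d5 and 0.19 at d9, beside 0.00, 0.01 and 0.01 over all genes tested. The tests over both days reuse the libraries of the single-day tests, so these counts are not independent of each other. The 10 genes were chosen with earlier results of these data known, so the shares are set side by side without a test.

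Between days, 4 of 10 rose at d9 with acetate, where 18.5% of all genes rose, 23.1% fell and 41.6% changed in either direction. Without acetate 4 of 10 rose, where 15.9% of all genes rose, 21.2% fell and 37.1% changed. They were Prf1, Serpinb9, Nkg7 and Lamp1 in both comparisons, and none of the 10 fell. Groups did not overlap for 6 of 10 with acetate, where 62.5% of all genes did not overlap in either direction, and for 7 of 10 without acetate, where 63.1% did not. All of these were higher at d9, as were 29.1% of all genes with acetate and 29.7% without. The median log2 fold change of the 10 was 0.30 with acetate and 0.34 without, beside -0.01 over all genes tested in each. Scaling by library size alone, in place of TMM factors, moved the median of all genes to -0.11 in both comparisons of days.

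Whether the acetate difference itself changed with day was tested as an interaction. None of the 10 genes passed the edgeR test, none had an unadjusted p under 0.05, and neither DESeq2 nor limma-voom called one. Over all genes 0% passed in edgeR, 102 passed in DESeq2 and 1015 had an unadjusted p under 0.05. The estimates, d9 minus d5, ran from -0.26 ± 0.27 for Serpinb6b (interval -0.86 to 0.34) to 0.17 ± 0.32 for Prf1 (interval -0.53 to 0.87). The narrowest interval was that of Rab27a, at -0.02 ± 0.16 with bounds of -0.38 and 0.34.

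Levels per length let the 10 genes be set beside each other. Per kilobase of annotated exon, Nkg7 was the highest in every group, at 1368 ± 199 CPM per kb at d9 with acetate (SD, n = 3) and 882 ± 39.2 CPM per kb at d5 with acetate (SD, n = 2). At d9 with acetate it was followed by Serpinb9 at 436 ± 72.7, Srgn at 327 ± 55.0, Prf1 at 239.9 ± 7.84 and Serpinb6b at 171 ± 31.9 CPM per kb. A lower tier held Lamp1 at 66.6 ± 2.18, Rab27a at 55.1 ± 4.29, Unc13d at 51.3 ± 6.11, Stxbp2 at 31.0 ± 3.72 and Stx11 at 27.5 ± 1.26 CPM per kb. Among neighbours in this order, the ranges of mean ± SD overlapped for Serpinb9 and Srgn, for Rab27a and Unc13d, and for Stxbp2 and Stx11, and were apart for the other neighbours.

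At d5 without acetate Srgn stood second at 255 ± 10.8 CPM per kb, and Serpinb9 (105 ± 12.1), Serpinb6b (94.7 ± 13.7) and Prf1 (92.8 ± 39.0) followed with overlapping ranges. Serpinb6b held the rank of 3 in the d5 libraries with acetate, at 197 ± 12.7 CPM per kb, a range that overlapped that of Serpinb9 at 182 ± 35.0, and the rank of 5 at d9 with and without acetate. Stx11 and Stxbp2 filled the last 2 ranks in all 4 groups. No test was made of this order, since exon lengths of the annotation need not match the transcripts in these cells.

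**Figure D4:**
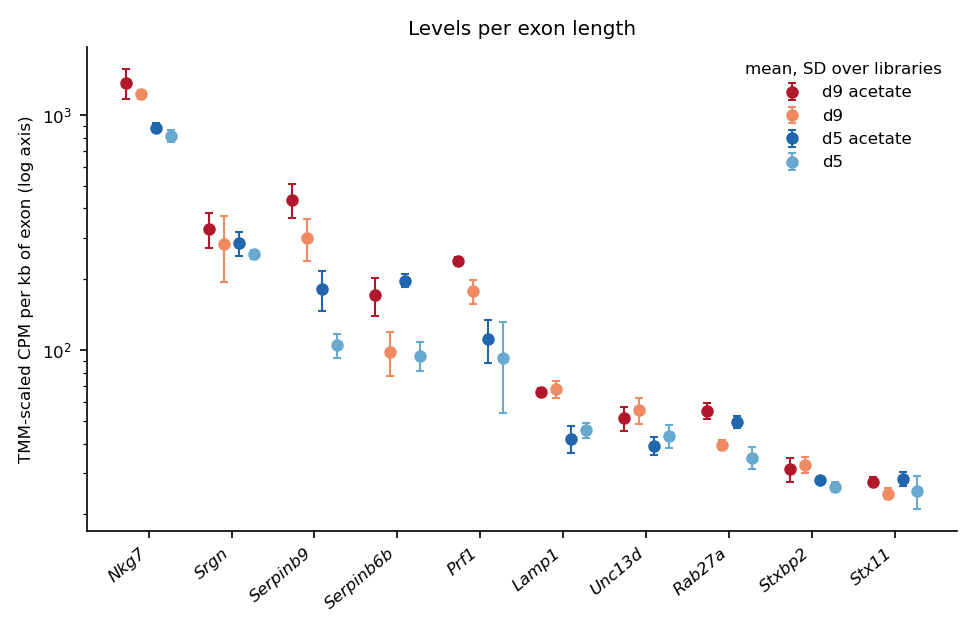
Mean level of each gene per kilobase of annotated exon, with SD bars over libraries (3 at d9, 2 at d5), on a log axis, with the groups in 4 colours. Nkg7 lies highest in all groups, at 816 to 1368 CPM per kb, and Stxbp2 and Stx11 lowest, at 24.5 to 32.5 CPM per kb.

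Granzymes and the proteases that process them are the cargo of the granule, and of 13 such genes listed, 12 were tested. The counts of this and the other lists stand beside 3.35% of all genes higher and 2.54% lower with acetate over both days. For d9 against d5 the shares were 18.5% higher and 23.1% lower with acetate, and 15.9% higher and 21.2% lower without it. With acetate over both days 3 of them rose, namely Gzmc (1.69 ± 0.17, adjusted p 0.00191), Gzmb (1.31 ± 0.13, adjusted p 0.00191) and Gzmf (1.05 ± 0.23, adjusted p 0.0298), with a list median of 0.87 beside 0.00 over all genes. At d9 relative to d5, 9 rose and 1 fell with acetate and 10 rose and 1 fell without it, with medians of 2.63 and 3.17. Gzmf differed by 5.33 ± 0.34 with acetate (adjusted p 4.00e-06) and 5.55 ± 0.36 without it (adjusted p 4.04e-06). Gzmb, the target of Serpinb9, rose by 1.58 ± 0.19 with acetate and by 2.05 ± 0.20 without.

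Transport and tethering genes of lysosome-related granules other than the 10 were listed as well. Of 17 tested, 0 rose with acetate over both days and 1 fell, where 5.89% of all genes changed. It was Hps1, a subunit of a complex of lysosome-related organelle biogenesis (-0.42 ± 0.10, adjusted p 0.0351), with a list median of -0.04. At d9 relative to d5, 6 rose and 2 fell in each acetate state. Sytl3, a synaptotagmin-like protein of the family that binds Rab27, rose by 1.08 ± 0.16 with acetate (adjusted p 4.49e-04) and 0.79 ± 0.16 without (adjusted p 0.00281). Rab27b, the paralog of Rab27a, rose by 2.42 ± 0.41 with acetate and 1.73 ± 0.36 without, at low levels of 1.47 ± 0.147 CPM at d9 with acetate (SD, n = 3) and 0.268 ± 0.141 CPM at d5 with acetate (SD, n = 2). Lyst, the lysosomal trafficking regulator lost in beige mice, fell at d9, with a log2 fold change of -1.37 ± 0.29 with acetate (adjusted p 0.00405) and -1.59 ± 0.30 without (adjusted p 0.00221).

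SNARE and SNARE-binding proteins carry out and regulate membrane fusion. Of 18 such genes tested, 2 rose and 3 fell at d9 with acetate, and 2 rose and 4 fell without it, with medians of 0.11 and 0.00. Vamp7, a lysosomal SNARE, was lower at d9 by -1.30 ± 0.22 with acetate (adjusted p 0.00117) and -1.20 ± 0.23 without (adjusted p 0.00245), and Stxbp3, a relative of Stxbp2, by -0.95 ± 0.15 and -0.86 ± 0.15. Napa, the SNAP adaptor that helps to take SNARE complexes apart, rose by 0.53 ± 0.10 with acetate and 0.50 ± 0.10 without. None of the 18 passed the edgeR test for acetate over both days, and 2 had an unadjusted p under 0.05, beside 25.2% of all genes.

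Of 9 lysosome and granule membrane genes tested, 5 rose and 2 fell at d9 with acetate, and 4 rose and 1 fell without it. Cd63, a tetraspanin of lysosomal granules, fell, at -1.77 ± 0.21 with acetate (adjusted p 1.30e-04) and -1.16 ± 0.21 without (adjusted p 0.00190). The proton pump subunits Atp6v0d1 and Atp6v1b2 rose in both states, by 0.57 ± 0.11 and 0.50 ± 0.12 with acetate and by 0.49 ± 0.11 and 0.55 ± 0.12 without. For acetate over both days 0 of the 9 passed the edgeR test and 4 had an unadjusted p under 0.05, beside 25.2% of all genes.

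Serglycin carries sugar chains, and of 15 tested genes that build such chains 7 rose and 1 fell at d9 with acetate, where 18.5% of all genes rose and 23.1% fell. Without acetate 3 rose and 2 fell, where 15.9% of all genes rose and 21.2% fell. Xylt2, which starts the chains, rose by 0.85 ± 0.15 with acetate (adjusted p 0.00167) and 0.92 ± 0.16 without (adjusted p 0.00124). Chsy1, a chondroitin synthase, rose by 1.06 ± 0.21 with acetate and 0.86 ± 0.21 without. For acetate over both days 0 of the 15 passed the edgeR test, with a median of -0.21 and 6 at an unadjusted p under 0.05, a share that was 25.2% over all genes.

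Calcium entry supplies the signal for fusion. Of 12 such genes tested, 4 rose and 4 fell at d9 with acetate, and 4 rose and 3 fell without it. Orai2, a calcium channel subunit, rose by 0.48 ± 0.13 with acetate and 0.61 ± 0.13 without, and Itpr3, a calcium release receptor, rose by 1.40 ± 0.24 with acetate (adjusted p 0.00105) and had an estimate of 0.57 ± 0.23 without (adjusted p 0.0717). For acetate over both days 0 of 12 passed the edgeR test and 2 had an unadjusted p under 0.05, beside 25.2% of all genes. Of 15 synapse and cytoskeleton genes, 3 rose and 0 fell at d9 with acetate and 5 rose and 0 fell without it, led by the adhesion ligand Icam1 (1.28 ± 0.12 and 1.53 ± 0.12) and the GTPase Rac2 (0.64 ± 0.13 and 0.80 ± 0.13). With acetate over both days the membrane linker Ezr rose (0.29 ± 0.07, adjusted p 0.0432) and the myosin Myo9b fell (-0.47 ± 0.11, adjusted p 0.0357).

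Of 17 transcription factors linked to the cytotoxic program, 11 rose and 1 fell at d9 with acetate, and 8 rose and 3 fell without it. Eomes, a T-box factor, rose by 3.13 ± 0.20 with acetate (adjusted p 4.00e-06) and 2.37 ± 0.19 without (adjusted p 1.33e-05), and Prdm1, which encodes Blimp-1, by 2.33 ± 0.33 and 2.49 ± 0.34. Tbx21, the other T-box factor on the list, was lower at d9, at -1.03 ± 0.24 with acetate (adjusted p 0.00662) and -1.38 ± 0.24 without (adjusted p 0.00151). Ets1 was -0.13 ± 0.15 with acetate (adjusted p 0.497) and fell without it, at -1.24 ± 0.15 (adjusted p 1.34e-04). Id2 (0.75 ± 0.15, adjusted p 0.0222) and Stat4 (0.53 ± 0.10, adjusted p 0.0179) rose with acetate over both days.

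At d9 alone, no gene of these 9 lists passed the edgeR test for acetate, with the smallest adjusted p at 0.0674 for Gzmb. At d5 alone, Gzmc (2.14 ± 0.26, adjusted p 0.00920) and Gzmb (1.55 ± 0.20, adjusted p 0.0112) did. Markers moved alongside. Klrb1c, an NK receptor gene also found on activated CD8 T cells, had 18.2 to 25.9 CPM at d9 with acetate, against 9.05 to 13.6 CPM at d9 without it, and 5.16 to 5.79 CPM at d5 with acetate, against 1.23 to 1.77 CPM at d5 without. It rose with acetate over both days by 1.40 ± 0.18 (adjusted p 0.00630). Of the 8 CD8 T cell markers, Cd8a passed the test over both days, at 0.48 ± 0.09 (adjusted p 0.0218). At d5 alone Klrb1c differed by 1.86 ± 0.31 (adjusted p 0.0224) and Cd8a by 0.75 ± 0.15 (adjusted p 0.0385). At d9 alone neither passed, with 0.94 ± 0.20 for Klrb1c (adjusted p 0.0991) and 0.20 ± 0.12 for Cd8a (adjusted p 0.459). Over both days the other CD8 markers did not pass. Of the 8 estimates 5 lay above 0 and 3 below, with a list median of 0.09. Cd3e was the lowest at -0.37 ± 0.16. For d9 against d5 without acetate, 5 of the 8 CD8 markers rose and 1 fell, where 15.9% of all genes rose and 21.2% fell. With acetate 1 of the 8 rose and 0 fell, where 18.5% of all genes rose and 23.1% fell. The list medians between days were 0.44 without acetate and 0.15 with it. Klrb1c shares 413 exon bases with an overlapping gene model on the same strand. The part of Klrb1c, Cd8a and the other CD8 markers in the differences of the 10 genes was not tested.

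The genes most like Prf1 in profile were found by the root-mean-square distance between centred log2 CPM over the 10 libraries, among 9792 protein-coding genes. They were Gbp3 (0.148), Pkp2 (0.193), Fasl (0.193), Gbp4 (0.196) and Lax1 (0.201), beside a median distance of 0.640. Among the other genes of the set, Nkg7 was the nearest to Prf1 at rank 169, followed by Serpinb9 at rank 519, and Serpinb6b lay at rank 6056. For Serpinb6b the nearest genes were Bmpr1a (0.174), Tma16 (0.175), Tmem38b (0.183), Mr1 (0.204) and Ifng (0.214), beside a median of 0.596. Rab27a stood at rank 109 for Serpinb6b and Serpinb9 at rank 7669. These distances are descriptive, and the libraries behind them share day and acetate state.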

How the data were processed

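Poly(A) RNA was sequenced with a stranded TruSeq kit, per the labels' protocols. The submitters' processing notes name STAR, featureCounts, deepTools, DESeq2 and the GRCm38 build, with no role stated. An annotation release and a strand setting were not stated. The authors deposited raw counts per Ensembl gene, 1 table per library, and these were used as deposited. Of the gene IDs, 53360 matched an annotation and 105 did not, which took at most 0.00689% of counts. Depth was 16588023 to 24659226 counts.

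Genes were filtered with filterByExpr, scaled with TMM and fitted in edgeR 4.0.16 (R 4.3.3) with quasi-likelihood tests on 4 group means, which share 1 estimate of the spread over all 10 libraries (biological coefficient of variation 0.161, 6 residual degrees of freedom). Acetate over both days is the mean of the 2 single-day contrasts. P-values were adjusted by Benjamini-Hochberg over the 13182 genes tested, at a threshold of 0.05. The scripts were tested on simulated data. Alternatives were DESeq2 1.42.0, limma-voom (limma 3.58.1), other scalings and filters, the replicate block, a ribosomal share covariate, fits on the groups compared alone, and libraries left out. Exon lengths came from the GENCODE annotation on GRCm38, promoters from RefSeq. The main fit did not pair libraries by replicate number.

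The members and lists were chosen with earlier results of these data known. All 10 members are named in every comparison or group summary. Of each list, up to 4 genes past the threshold could be named per comparison, by smallest p. Tbx21, and Gzmb in the comparison of days with acetate, ranked the fifth and were named after their values were seen, and for some genes named by one comparison the value in the other is given as well. The 5 genes nearest in profile were named for Prf1 and Serpinb6b.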

Additional observations from a re-analysis of the deposited data

How the results depend on the processing

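Across 20 alternative fits (10 that each leave out 1 library and 10 others), 1124 of 1180 gene values kept their side of the threshold, 22 lost the call, 34 gained it and 0 of the called values reversed; 56 values changed sign, none of them past the threshold. For acetate at d5, 1 of the 10 genes passed; 2 did without the low-count filter, 0 with the replicate block, 0 to 2 with each library left out, and 3 with DESeq2, with the ribosomal share covariate, with the groups compared alone and with both d9 libraries of high ribosomal share left out. For acetate at d9, where 0 passed, 1 did without the filter, 2 with DESeq2, 3 with the covariate, 2 with both high-share libraries left out and 0 to 0 with each library left out. For acetate over both days, where 3 passed, leaving out a library gave 0 to 3. For d9 against d5, where 4 passed, it gave 2 to 6 without acetate and 4 to 5 with it. Leaving out a d5 library leaves 1 in its group, assumed to vary like the other groups. The cause of the other changes was not tested. Over all genes, the acetate count was 201 at d5, but 62 with the replicate block, 578 without the filter, 786 with DESeq2, 1077 with the covariate, 1701 with the groups compared alone and 2162 without the high-share libraries. At d9 it was 4, but 197 without the filter, 335 with DESeq2, 958 with the covariate and 213 without the high-share libraries. Over both days it was 777, but 484 with the block, 1435 with DESeq2, 2904 with the covariate and 2667 without the high-share libraries. The interaction count was 0, but 99 without the filter, 102 with DESeq2, 35 with the covariate and 255 without the high-share libraries. With each library left out, all-gene counts ran from 0 to 498 for acetate at d5, 0 to 18 at d9, 27 to 1659 over both days, 2803 to 5425 for d9 against d5 without acetate and 3108 to 6048 with it. The deviations of libraries of the same number from their group means had correlations of -0.14, -0.39 and 0.33 at d9 and 0.03 at d5. The highest correlation between libraries of different groups, 0.51, was that of the d9 libraries of high ribosomal share, which carry different numbers. In groups of 2 or 3 libraries such values cannot exclude a pairing. The replicate block changed 1 call among the 10 genes, that of Serpinb6b at d5. The lowest raw count of the 10 genes was 1695. Between libraries of a group, the chi-square per degree of freedom over genes, about 1 under counting error alone, was 5.63 to 70.4. Libraries of a group thus differed by more than counting error. How far depth or the number of libraries limits these tests was not tested.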

Other observations

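The levels of 3 genes were also set against Gzmb within each library, a comparison chosen after their values were seen. Serpinb9, which inhibits granzyme B, stood at 14.6%, 15.4% and 13.0% of Gzmb in TMM-scaled CPM at d9 with acetate, against 20.7%, 21.7% and 19.8% at d9 without acetate. At d5 it stood at 16.8% and 18.8% of Gzmb with acetate, against 25.6% and 35.5% without. Although Serpinb9 itself was higher with acetate, its ratio to Gzmb with acetate was 63.8% of that without it, averaged over both days, and the groups did not overlap on either day. Prf1 had 52.1% of the ratio without acetate, and Serpinb6b 76.8%. No p-value is given, since the ratios were chosen with these values known and Gzmb had already shown the larger estimated difference with acetate. Gzmb was higher with acetate by a factor of 2.48 over both days, and its groups did not overlap on either day. A gene unchanged with acetate would therefore also show a lower ratio to Gzmb. The ratios share Gzmb as the denominator, and transcript ratios are not protein ratios.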
